A study of Mus musculus with 6 samples.

Results

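The prolactin receptor, its kinase, the STAT5 factors, their feedback genes and the transcription factors of the milk-secreting lineage are described here in mammary epithelial cells (MECs) of IL-21isoTg and wild-type (WT) mice. The members were the 10 genes Prlr, Jak2, Stat5a, Stat5b, Cish, Socs2, Elf5, Ehf, Gata3 and Nfib, chosen by symbol from the 55487 genes of the deposited count table. Each symbol matched 1 gene, and all 10 genes passed the filter on low counts, which left 17165 genes for testing.

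RNA was sequenced from MECs of 3 WT and 3 IL-21isoTg mice, all female, virgin, on the BALB/c background and 10 weeks of age, with 1 library per mouse and estrous stage randomized. IL-21isoTg mice carry a transgene for a membrane-bound isoform of interleukin 21 that is made in T cells, so the epithelium itself was not the site chosen for expression. The sources used here do not name the promoter of the transgene. MECs were the cells that remained after digestion of the gland and magnetic depletion of leukocytes (CD45), endothelial cells (CD31) and fibroblasts (CD140a), without a positive selection for epithelium.

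Prolactin binds a receptor without enzymatic activity of its own, and the kinase JAK2 attached to that receptor then phosphorylates STAT5A and STAT5B, which enter the nucleus and bind DNA as dimers. Milk protein genes and the inhibitors CIS and SOCS2 are classical targets of this pathway, and the inhibitors dampen the receptor in turn. ELF5 is the ETS factor that directs luminal progenitors to the secretory alveolar fate, EHF is a related epithelial ETS factor, GATA3 maintains luminal cells and NFIB binds beside STAT5 at many mammary genes. Pathway activity rests on phosphorylation, which RNA counts do not measure.

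The libraries held between 15902886 and 25719244 counts, and every member had at least 520 counts in every mouse. Il21, an isoform of which the transgene encodes, had 795, 216 and 131 counts in the IL-21isoTg mice and 0, 0 and 37 in the WT mice, so the library labelled WT 3 also held Il21 reads. Genes of a salivary gland list of 20 genes took 23.0%, 6.68% and 15.8% of all counts in WT mice 1, 2 and 3, and 22.6%, 4.98% and 41.1% in IL-21isoTg mice 1, 2 and 3. The luminal markers Krt8, Krt18 and Epcam and the other 5 of that list all passed the filter, and 6 of the 8 had a positive log2 fold change, with 0 past the threshold. Fibroblast markers summed to between 1986 and 3481 CPM (a count relative to the normalized size of its library) in WT mice and between 4354 and 5010 CPM in IL-21isoTg mice, so these groups did not overlap. Endothelial markers summed to between 89.4 and 226 CPM in WT mice and between 140 and 318 CPM in IL-21isoTg mice. The part of these other cells in the results below was not tested except where a value is given.

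In edgeR's quasi-likelihood test, 0 of the 10 members had an adjusted p under 0.05, and the same test called 0% of the 17165 genes higher and 0% lower. DESeq2 called 0.492% of 16471 genes and 0 of the members. Without adjustment, 2 members, Cish and Elf5, had a p under 0.05, where 5.82% of all genes did. The IL-21isoTg mean was above the WT mean by log2 fold change for 6 members (Stat5a, Stat5b, Cish, Socs2, Elf5 and Ehf), where 47.9% of all genes had a positive value, and below it for 4 (Prlr, Jak2, Gata3 and Nfib). The median log2 fold change was 0.17 over the members and -0.02 over all genes tested. Elf5 was the member whose 3 IL-21isoTg values all lay above the 3 WT values, and the groups of the other 9 overlapped, where 12.1% of all genes had groups apart in either direction and 5.54% had them apart with higher and 6.54% with lower values in IL-21isoTg mice. In bulk RNA, fewer cells of a type and less RNA per cell cannot be told apart. The levels below are CPM normalized by the trimmed mean of M values (TMM), given for mice 1, 2 and 3 in that order.

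**Figure D1:**
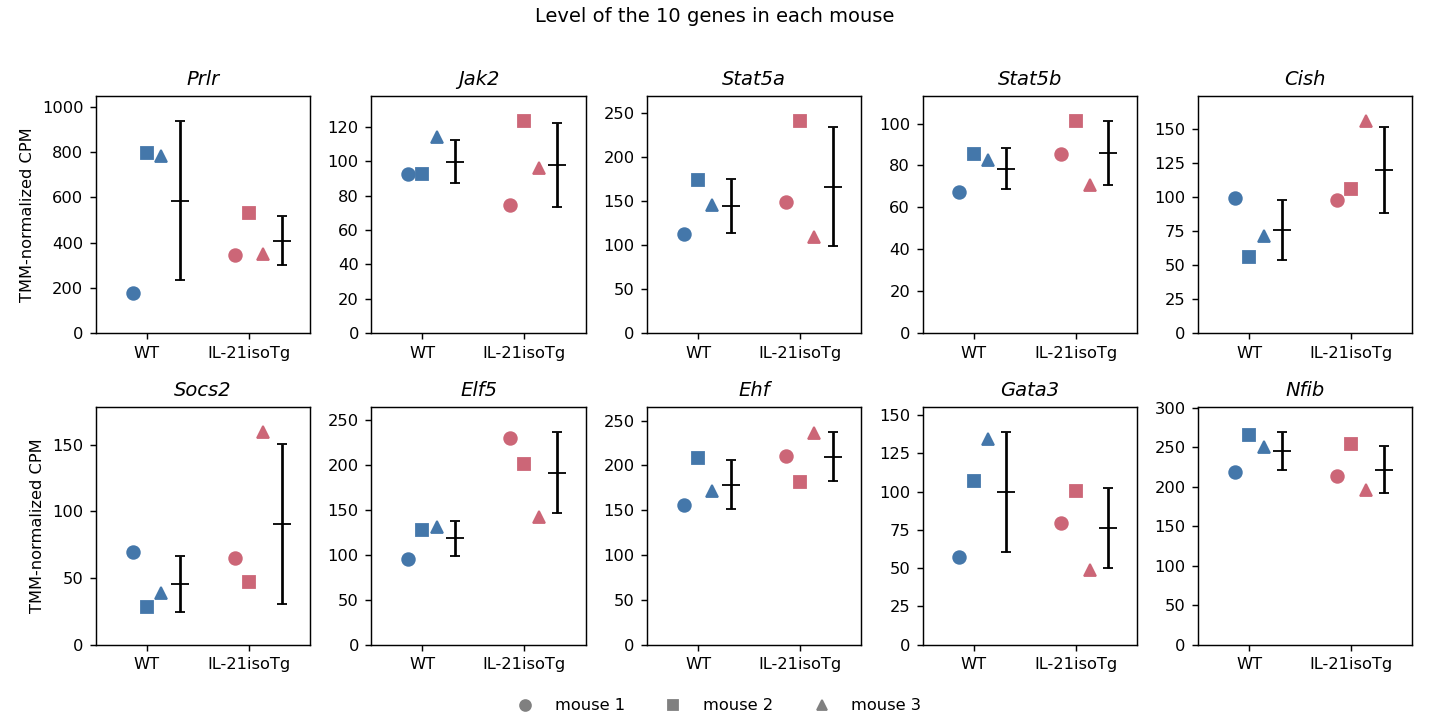
Level of each of the 10 genes in TMM-normalized CPM (y axis, from 0) by genotype (x axis), with 1 symbol per mouse and, beside the symbols, the mean (horizontal line) and standard deviation (bar) of 3 mice. The Elf5 symbols of the IL-21isoTg mice all lie above those of the WT mice, and the Prlr value of WT mouse 1 lies far below the other 2 WT values.

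Prlr (ENSMUSG00000005268), the receptor, lies on chr15:10177238-10349180 of GRCm38, plus strand. Its level was 179, 796 and 781 CPM in WT mice and 344, 533 and 348 CPM in IL-21isoTg mice. The lowest and the highest of the 6 values were thus both from WT mice, which spanned 4.45-fold, and the IL-21isoTg values lay between them. The means were 585 ± 352 and 409 ± 108 CPM (SD, n = 3 each). The log2 fold change was -0.52 (SE 0.51, 95% interval -1.69 to 0.65, edgeR adjusted p = 0.868), so changes of more than 2-fold downward were within the interval. Without WT mouse 1 the log2 fold change of Prlr was -0.94 (unadjusted p = 0.00431, edgeR adjusted p = 0.554), and the groups no longer overlapped, as was the case for 26% of all genes then tested. Other alternatives moved it toward 0: it was -0.23 without WT mouse 2 and -0.25 without WT mouse 3. With the summed level of the salivary gland genes as a covariate it was -0.29. The gene has 12 annotated transcripts, among which counts per gene do not separate the long receptor form that activates STAT5 from the short forms.

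Among markers of hormone-sensing luminal cells, the cells known for high Prlr, some were low in WT mouse 1 as the receptor was, and others, such as Areg at 402 CPM and Cited1 at 85.4 CPM, were not. Areg and Cited1 were chosen after their values were seen. Esr1, the estrogen receptor alpha gene, stood at 31.9, 66.4 and 62.7 CPM in WT mice and 32.6, 51.2 and 32.4 CPM in IL-21isoTg mice. The number of Prlr counts per Esr1 count was 5.61 in WT mouse 1 and between 10.4 and 12.5 in the other 5 mice. The proportion in that mouse thus lay below those of both genotypes.

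Jak2 (ENSMUSG00000024789; chr19:29251828-29313080, plus strand) encodes the kinase bound to the receptor. Its level was 92.5, 92.4 and 114 CPM in WT mice and 74.7, 123 and 96.1 CPM in IL-21isoTg mice. IL-21isoTg mice held both the lowest and the highest value. The log2 fold change was -0.02 (SE 0.21, 95% interval -0.51 to 0.46, edgeR adjusted p = 0.987), and its sign depended on the processing.

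Stat5a (ENSMUSG00000004043; chr11:100859351-100885169, plus strand) and Stat5b (ENSMUSG00000020919; chr11:100780731-100850724, minus strand) are close paralogs that lie 8626 bp apart, and STAT5A is the form most needed for milk production. Stat5a stood at 113, 174 and 146 CPM in WT mice and 148, 241 and 109 CPM in IL-21isoTg mice, a log2 fold change of 0.21 (SE 0.30, 95% interval -0.49 to 0.90, edgeR adjusted p = 0.918). Stat5b stood at 67.2, 85.5 and 82.6 CPM in WT mice and 85.4, 101 and 70.8 CPM in IL-21isoTg mice, a log2 fold change of 0.13 (SE 0.18, 95% interval -0.29 to 0.55, edgeR adjusted p = 0.913). For both genes IL-21isoTg mouse 2 was highest, and without it both log2 fold changes were below 0, at -0.16 for Stat5a and -0.01 for Stat5b. The proportion of the paralogs lay between 1.55 and 2.38 Stat5a counts per Stat5b count, with the lowest and the highest value both in IL-21isoTg mice. Reads that match both paralogs could be assigned to either or to none, and how they were counted is not given in the sources used here.

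Cish (ENSMUSG00000032578; chr9:107296026-107302784, plus strand) encodes CIS, an inhibitor that binds activated receptors, and is an immediate target of STAT5. STAT5 dimers bind the palindrome TTCNNNGAA. The sites of this form nearest to gene starts are shown for Cish, Prlr and those milk protein genes that held one, whose log2 fold changes differed. The motif was searched in RefSeq promoter windows of 300 bases, 250 before and 50 after each start (GRCm38.p6, a C57BL/6J reference, whereas these mice were BALB/c). Capitals mark the motif, which reads the same on both strands.
Cish, chr9:107296654-107296683, plus strand: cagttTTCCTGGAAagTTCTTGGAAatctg
Prlr, chr15:10223786-10223815, plus strand: gcaaaatgagTTCTAGGAAtaagggatatc
Csn1s1, chr5:87666098-87666127, plus strand: tttgtaacaaTTCTTAGAAtttatgtaaaa
Csn2, chr5:87699499-87699528, minus strand: tcacgtagacTTCTTGGAAttgaagggact
Csn1s2a, chr5:87774460-87774489, plus strand: ttatagtgctTTCTTAGAAttacaatgact
Glycam1, chr15:103565207-103565236, minus strand: gccaactcatTTCCCAGAAacaccaattcc

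The Cish window held 2 such motifs, where 0.457% of all 32851 windows held 2 or more. The first bases of the Cish motifs were bases 1 and 12, counting the RefSeq start as base 1. The Prlr motif began 110 bases before the start of the second of its promoters, and those of Csn2, Csn1s1 and Glycam1 began 93, 100 and 145 bases before theirs. Among the members, 7 of 10 had an entry, with 12 windows, of which 2 held the motif (Cish and Prlr). Among milk protein genes, 6 of 8 had an entry and 4 of 6 windows held it, where 8.3% of all windows did. The windows of Wap and Lalba, with log2 fold changes of 5.99 and 3.39, did not hold it. Socs2, Ehf and Nfib had no entry. A match of letters describes the sequence and does not show that STAT5 was bound there in these cells.

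The Cish level was 99.8, 56.0 and 71.8 CPM in WT mice and 97.9, 106 and 156 CPM in IL-21isoTg mice. The highest WT value exceeded the lowest IL-21isoTg value, so the groups overlapped by that pair, and IL-21isoTg mouse 3 stood highest. The means were 75.9 ± 22.2 and 120 ± 31.6 CPM (SD, n = 3 each), a log2 fold change of 0.66 (SE 0.26, 95% interval 0.05 to 1.27, unadjusted p = 0.0375, edgeR adjusted p = 0.809). The exact two-sided permutation test gave p = 0.2, where 0.1 is the smallest p that 3 mice against 3 allow. Without IL-21isoTg mouse 3 the log2 fold change of Cish was 0.43. Cish shares 479 bp of exon with the antisense gene Gm17041, whose counts were between 29.97% and 35.3% of the Cish counts in every library. The shared part is 7.46% of the Cish exon length. Whether the counting used strand is not stated, so the gene of origin of reads in that part cannot be told.

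Socs2 (ENSMUSG00000020027; chr10:95385362-95417180, minus strand), a STAT5 target best known as a brake on growth hormone signalling, showed the largest log2 fold change of the members and the largest spread among IL-21isoTg mice. Its level was 69.2, 28.5 and 38.7 CPM in WT mice and 64.8, 47.3 and 159 CPM in IL-21isoTg mice. IL-21isoTg mouse 3 stood far above the other 5 mice, and the remaining values of the genotypes were interleaved. The log2 fold change was 0.99 (SE 0.49, 95% interval -0.14 to 2.12, edgeR adjusted p = 0.809), and it was 0.31 without IL-21isoTg mouse 3.

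IL-21isoTg mouse 3 was also the library with the largest salivary gland share, and the levels of Socs2 and Cish were set beside that share. In ascending order of share, from IL-21isoTg mouse 2 through WT 2, WT 3, IL-21isoTg 1 and WT 1 to IL-21isoTg 3, Socs2 stood at 47.3, 28.5, 38.7, 64.8, 69.2 and 159 CPM. In the same order Cish stood at 106, 56.0, 71.8, 97.9, 99.8 and 156 CPM. Both genes stood higher in IL-21isoTg mouse 2, the library of lowest share, than in WT mice 2 and 3. Within each genotype Socs2 rose with the share, and Cish did so in WT mice but not in IL-21isoTg mice. Over the 6 mice, Pearson's r of log2 CPM with the log2 summed salivary level was 0.85 for Socs2 and 0.65 for Cish. The WT mouse 1 and IL-21isoTg mouse 1 libraries, with shares of 23.0% and 22.6%, had nearly equal levels of both genes. With the salivary level as a covariate, the log2 fold changes were 0.57 for Cish and 0.63 for Socs2. Prlr, Stat5a, Stat5b, Gata3 and Nfib, in contrast, were lowest in libraries of high share. In that order Stat5a stood at 241, 174, 146, 148, 113 and 109 CPM. How much of each gene's RNA came from salivary tissue was not tested.

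**Figure D2:**
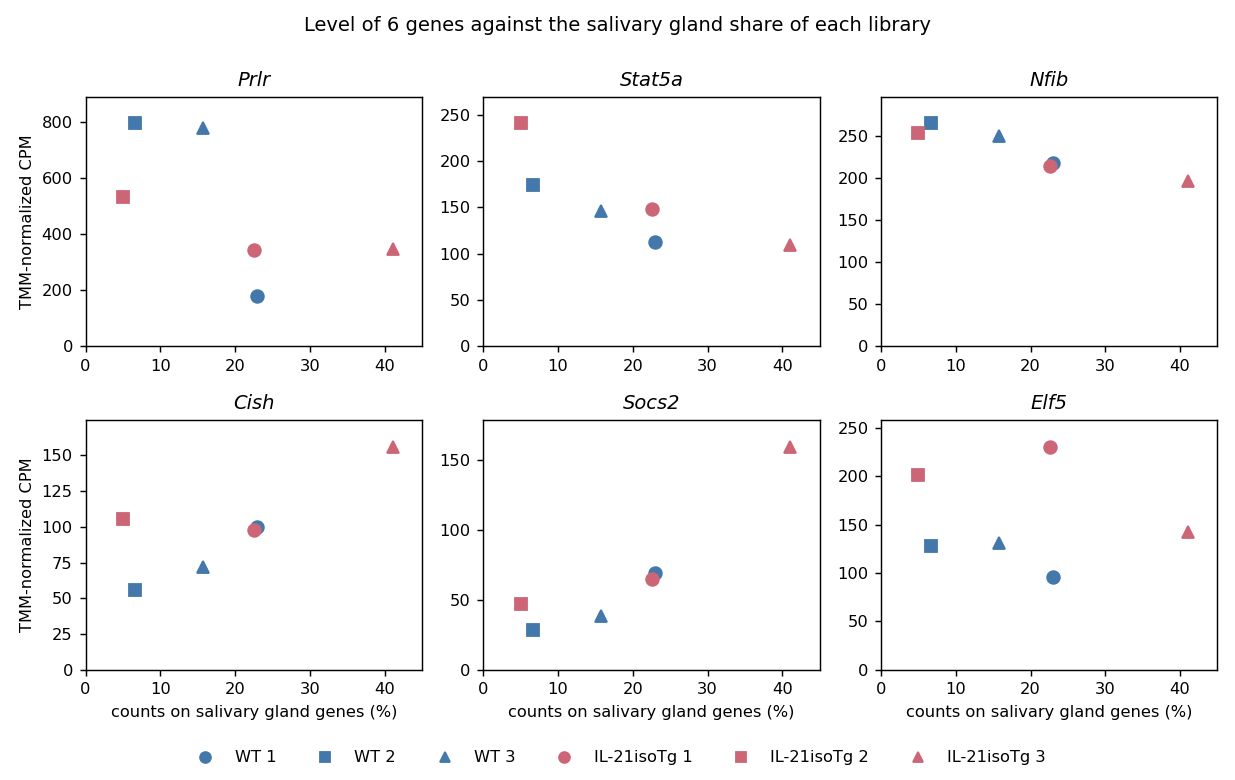
Level of 6 of the genes in TMM-normalized CPM (y axes, from 0) against the percentage of counts on 20 salivary gland genes (x axes), with 1 symbol per mouse. Cish and Socs2 are highest, and Nfib and Stat5a lowest, in the IL-21isoTg mouse with a share of 41.1%. The Elf5 values of the IL-21isoTg mice lie above those of the WT mice, of which none has a share above 23.0%.

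Elf5 (ENSMUSG00000027186; chr2:103411688-103450989, plus strand), the alveolar fate factor, stood at 95.8, 128 and 131 CPM in WT mice and 231, 201 and 142 CPM in IL-21isoTg mice. All 3 IL-21isoTg values were above all 3 WT values, though mouse 3 of each genotype differed by a small margin. The means were 118 ± 19.4 and 191 ± 45.1 CPM (SD, n = 3 each), a 1.62-fold difference. The log2 fold change was 0.70 (SE 0.22, 95% interval 0.18 to 1.21, unadjusted p = 0.0148, edgeR adjusted p = 0.809), and the exact two-sided permutation test gave the smallest p the design allows, 0.1. The difference therefore did not pass the test over all genes.

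Elf5 kept its direction when each mouse was left out in turn, with log2 fold changes from 0.54 to 0.88, and with the salivary level as a covariate, at 0.76 (edgeR adjusted p = 0.714). Against the related factor Ehf, the number of Elf5 counts per Ehf count was 0.615, 0.614 and 0.761 in WT mice and 1.09, 1.11 and 0.601 in IL-21isoTg mice. IL-21isoTg mice 1 and 2 thus had a higher proportion of Elf5 than any WT mouse, whereas mouse 3 was below all WT mice. Against the luminal keratin gene Krt8, the number of Elf5 counts per Krt8 count was 0.0360, 0.0725 and 0.0606 in WT mice and 0.141, 0.0669 and 0.0599 in IL-21isoTg mice. By that proportion the groups overlapped, and IL-21isoTg mice 2 and 3 were below WT mouse 2.

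Ehf (ENSMUSG00000012350; chr2:103263433-103303278, minus strand) lies 108409 bp from Elf5 on chromosome 2. Its level was 156, 209 and 172 CPM in WT mice and 211, 182 and 236 CPM in IL-21isoTg mice. The groups overlapped, and the log2 fold change was 0.23 (SE 0.18, 95% interval -0.19 to 0.65, edgeR adjusted p = 0.841).

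Gata3 (ENSMUSG00000015619; chr2:9857078-9890034, minus strand), the luminal factor, stood at 57.5, 107 and 135 CPM in WT mice and 79.7, 101 and 48.5 CPM in IL-21isoTg mice. Like Prlr it was low in WT mouse 1, and its lowest value was that of IL-21isoTg mouse 3. These mice had the largest salivary gland shares, 23.0% and 41.1%. Pearson's r of log2 CPM with the log2 summed salivary level was -0.75 for Gata3 and -0.60 for Prlr. With the salivary level as a covariate the log2 fold change of Gata3 was -0.26. The part of the salivary share in these low values was not tested. Without that covariate the log2 fold change was -0.38 (SE 0.35, 95% interval -1.20 to 0.44, edgeR adjusted p = 0.858). Without WT mouse 1 the Gata3 groups did not overlap, at the same background of 26%, and without mouse 3 of both genotypes its log2 fold change was 0.13. Foxa1, a factor that opens chromatin for the estrogen receptor, was likewise low in WT mouse 1 and IL-21isoTg mouse 3. It stood at 60.2, 133 and 143 CPM in WT mice and 77.3, 88.4 and 54.4 CPM in IL-21isoTg mice.

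Nfib (ENSMUSG00000008575; chr4:82290173-82705750, minus strand), the nuclear factor I partner of STAT5, had the smallest spread of the members in WT mice, 1.22-fold from lowest to highest. Its level was 218, 265 and 251 CPM in WT mice and 214, 254 and 196 CPM in IL-21isoTg mice. The groups overlapped, with the lowest value in IL-21isoTg mouse 3, and the log2 fold change was -0.14 (SE 0.17, 95% interval -0.54 to 0.26, edgeR adjusted p = 0.890).

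To compare the members with each other, CPM was divided by the merged exon length in kilobases. That length covers the exons of all annotated transcripts, whether or not these cells use them, so the order depends on the annotation. In WT mice the order of mean CPM per kb was Prlr (38.2 ± 23.0), Ehf (32.1 ± 4.86), Gata3 (25.1 ± 9.83), Stat5a (20.2 ± 4.32), Elf5 (20.1 ± 3.31), Jak2 (19.8 ± 2.51), Nfib (16.4 ± 1.61), Stat5b (14.2 ± 1.78), Cish (11.8 ± 3.45) and Socs2 (4.77 ± 2.22; SD, n = 3 each). Of the 9 neighbouring pairs in that order, 1 differed by more than the sum of both SDs, Cish and Socs2. In IL-21isoTg mice Ehf (37.6 ± 4.91 CPM per kb) and Elf5 (32.6 ± 7.67) stood above Prlr (26.6 ± 7.03), and 0 of the 9 neighbouring pairs differed by more than their SDs.

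The milk protein genes, targets of STAT5 and ELF5, are the contrast to these small differences. The paper reports casein and lactalbumin genes as upregulated in these same libraries, so this list was not independent of the data. All 8 tested had higher values in every IL-21isoTg mouse than in any WT mouse, where 5.54% of all genes did. Their log2 fold changes ran from 2.02 for Csn3 to 5.99 for Wap. All 8 had an unadjusted p under 0.05, where 5.82% of all genes did, and edgeR quasi-likelihood adjusted p between 0.126 and 0.809. DESeq2 and edgeR's likelihood ratio test each called 5 of the 8 (Csn1s1, Csn1s2b, Csn3, Lalba and Glycam1), with DESeq2 adjusted p at most 0.00154. Without WT mouse 3, the WT library with Il21 reads, the quasi-likelihood test called 4 (Csn2, Csn1s2a, Csn1s2b and Wap), and the log2 fold change rose from 4.81 to 8.70 for Csn2 and from 4.95 to 9.95 for Csn1s2a. Wap had 1 count in each of WT mice 1 and 2, so its fitted value without WT mouse 3 depends on the prior count. For Wap, Csn2 and Csn1s2a the unadjusted p exceeded 0.05 without the filter on low counts, at 0.0726, 0.0747 and 0.1003, and the same 3 genes exceeded it without WT mouse 1. Csn1s2a also exceeded it with the salivary level as a covariate. Wap did so without IL-21isoTg mouse 1 and without IL-21isoTg mouse 2. Summed over the 8 genes, the level was 538, 523 and 1733 CPM in WT mice and 20366, 15762 and 8818 CPM in IL-21isoTg mice. Elf5 was in the same order as that sum within the IL-21isoTg mice, highest in mouse 1 and lowest in mouse 3, but not within the WT mice, where mouse 1, with a sum above that of mouse 2, had the lowest Elf5 level. Prlr was highest in WT mouse 2, the mouse with the lowest sum. In the quasi-likelihood fit of all 6 mice, the lowest lower bound of a 95% interval among the milk protein genes was 0.95, for Csn1s2a. The upper bounds of Prlr, Jak2, Stat5a and Stat5b, between 0.46 and 0.90, lay below it, as did those of Ehf, Gata3 and Nfib. Those of Elf5, Cish and Socs2, at 1.21, 1.27 and 2.12, lay above it.

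**Figure D3:**
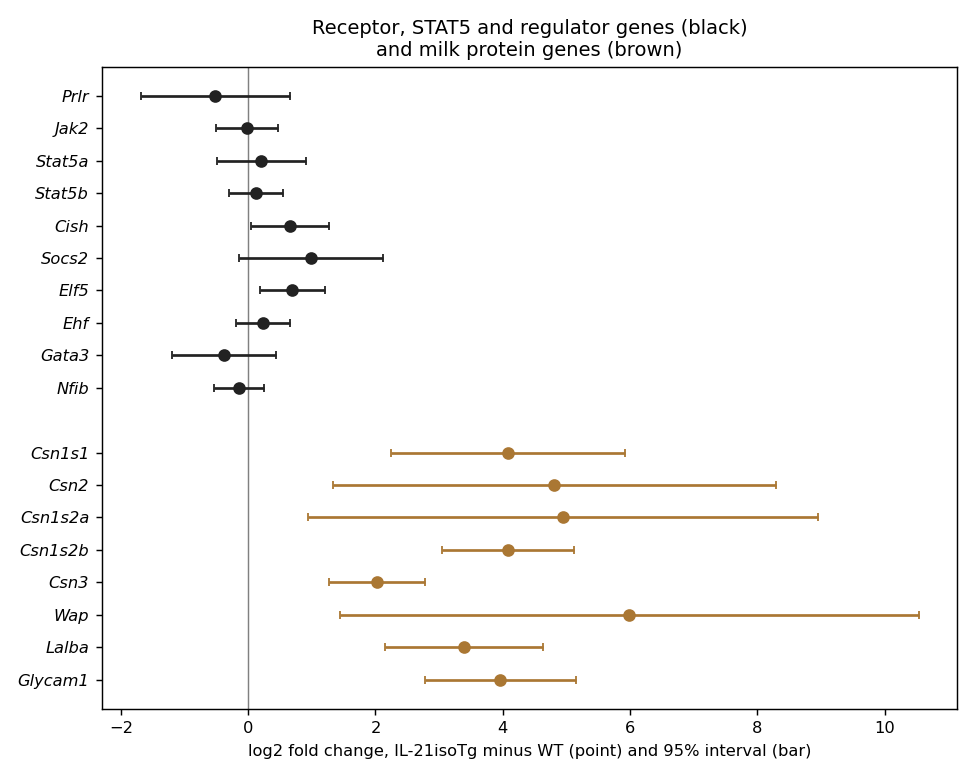
Log2 fold change, IL-21isoTg minus WT, of the 10 receptor, STAT5 and regulator genes (black) and 8 milk protein genes (brown), as points with 95% intervals from the edgeR quasi-likelihood fit (x axis). The intervals of Cish and Elf5 among the black points, and of all 8 milk protein genes, lie above 0.

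**Figure D4:**
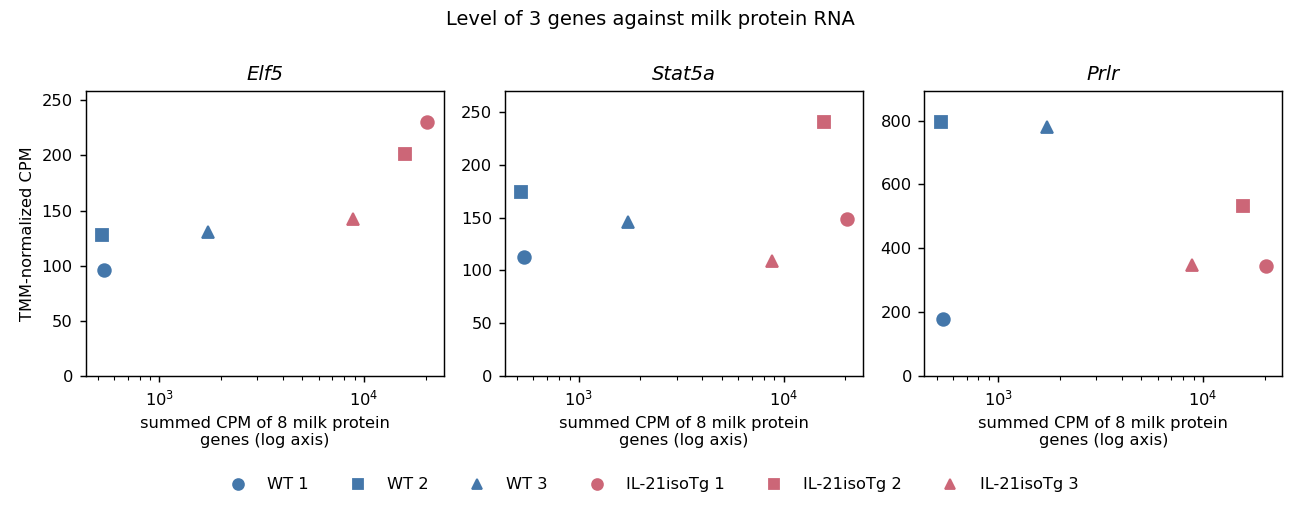
Level of Elf5, Stat5a and Prlr in TMM-normalized CPM (y axes, from 0) against the summed CPM of 8 milk protein genes (x axes, log scale), with 1 symbol per mouse. The IL-21isoTg mice lie at the right, between 8818 and 20366 CPM, and among the 3 panels it is Elf5 whose IL-21isoTg values all exceed the WT values.

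Among other ligands and receptors that signal through JAK2 or STAT5, 3 of 7 genes passed the filter, 1 with a positive and 2 with a negative log2 fold change and 0 past the threshold. Prl and Gh, which encode prolactin and growth hormone, had 0 counts in all 6 libraries, which allows up to 0.112 to 0.280 CPM by library (3 counts), and this limit covers counting error only. Ghr, the growth hormone receptor gene, stood at 43.2, 42.2 and 37.1 CPM in WT mice and 77.3, 32.5 and 124 CPM in IL-21isoTg mice (log2 fold change 0.93, edgeR adjusted p = 0.809), highest in the mouse in which its target Socs2 was highest. Without that mouse the log2 fold change of Ghr was 0.44, and with the salivary level as a covariate it was 0.48. Erbb4, the neuregulin receptor that also activates STAT5 in the gland, was low and lower in all 3 IL-21isoTg mice, at 6.81, 10.6 and 10.9 CPM in WT mice against 5.53, 5.99 and 4.66 CPM. Its log2 fold change was -0.80 (SE 0.27, unadjusted p = 0.0187, edgeR adjusted p = 0.809). Over all genes, 6.54% had groups apart with lower values and 5.82% had an unadjusted p under 0.05.

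The other 8 JAK and STAT genes all passed the filter, with 5 positive and 3 negative log2 fold changes, 0 past the threshold and a median of 0.13. Their groups overlapped throughout, where 12.1% of all genes had groups apart. The kinase genes Jak1, Jak3 and Tyk2 had log2 fold changes of 0.22, 0.13 and 0.41, and the STAT genes Stat3 and Stat6 had 0.13 and -0.07. Stat3, which drives involution of the gland after weaning, lay between 330 and 441 CPM in the 6 mice.

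Of 16 other feedback inhibitors and phosphatases, 8 had positive and 8 negative log2 fold changes, with 0 past the threshold and a median of -0.02. Socs3, the inhibitor induced by STAT3, spread widely, at 167, 697 and 575 CPM in WT mice and 748, 475 and 322 CPM in IL-21isoTg mice, and like Prlr its lowest value was that of WT mouse 1. Socs1 had a log2 fold change of -0.65 and Socs4, the gene of the list with the smallest p, -0.32 (unadjusted p = 0.0609, edgeR adjusted p = 0.809). Among the 6 other SOCS genes, 2 had positive and 4 negative log2 fold changes. In the whole list, 2 genes, Socs4 and Socs6, had lower values in all 3 IL-21isoTg mice than in any WT mouse and 0 had higher values. Over all genes these shares were 6.54% and 5.54%. Without WT mouse 1 the log2 fold change of Socs1 was -0.16, and without WT mouse 2 it was -1.002.

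Of 8 STAT5 targets outside the milk proteins, 5 had positive and 3 negative log2 fold changes, with 0 past the threshold and a median of 0.08. Ccnd1, which encodes cyclin D1, stood at 171, 269 and 210.0 CPM in WT mice and 116, 191 and 89.4 CPM in IL-21isoTg mice (log2 fold change -0.71, unadjusted p = 0.0458, edgeR adjusted p = 0.809). Tnfsf11, which encodes RANKL, stood at 27.1, 1.73 and 1.03 CPM in WT mice and 0.790, 0.521 and 0.373 CPM in IL-21isoTg mice (log2 fold change -4.08, edgeR adjusted p = 0.809). The size of that change rested on WT mouse 1, and leaving out each mouse in turn gave from -4.62 to -1.24.

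Of 14 other luminal and alveolar transcription factors, 6 had positive and 8 negative log2 fold changes, with 0 past the threshold and a median of -0.10. The relatives of the members lay between -0.16 and 0.27: Nfia, Nfic and Nfix had log2 fold changes of 0.02, -0.16 and -0.08, and the ETS factor Elf3 had 0.27. Those of Nfia, Nfix and Elf3 changed sign under some alternatives. Cbfb, the partner of the RUNX factors, was lower in all 3 IL-21isoTg mice, with a log2 fold change of -0.41 (unadjusted p = 0.0435, edgeR adjusted p = 0.809). In this list 0 genes had groups apart with higher values in IL-21isoTg mice, where 5.54% of all genes did. With lower values there was 1, Cbfb, where 6.54% of all genes had such groups.

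As a description of pattern, the genes most like each member over the 6 mice were ranked among 15387 genes by Pearson's r of log2 CPM, with no test, since the points share genotype, depth and salivary share. For Elf5 these were Bmp2 and Ceacam10, for Prlr Glt28d2 and Rassf9, and for Jak2 Gdap1l1 and Stam2. For Stat5a they were 2510039O18Rik and Mapk7, and for Stat5b Cav1 and Pfkl, of which Cav1 encodes caveolin-1, an inhibitor of JAK2 in the gland. For Gata3 they were Pgam2 and Trps1, the latter a GATA-type repressor, and for Nfib Sri and Wnt4. For Cish they were Gm2427 and Slc66a2, for Socs2 Tmem214 and Scn8a, and for Ehf Cst3 and Thnsl2. All of these r values were at least 0.9826 over 6 mice.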

How the data were processed

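MECs of 3 WT and 3 IL-21isoTg mice were analysed by poly(A) RNA-seq, and groups and mouse numbers were taken from the sample labels. The authors deposited raw read counts per gene. Per the labels, tools included FastQC 0.11.7, Trimmomatic 0.38, HISAT2 2.1.0, SAMtools 1.9, featureCounts 1.6.3 and DESeq2 1.24.0, with build mm10. The annotation and strand setting are not given in the sources used here. The deposited normalized table and the authors' comparison, which holds log2 fold changes and p-values, were not used.

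Counts were filtered with filterByExpr (minimum count 10, total 15), normalized by TMM and compared by genotype with edgeR 4.0.16 (robust quasi-likelihood test, Benjamini-Hochberg adjustment over 17165 genes, threshold 0.05). Single genes also had exact permutation tests (pseudocount 0.5), and likeness used log2 CPM (prior count 2) for genes of at least 1 CPM. R 4.3.3, limma 3.58.1, DESeq2 1.42.0, Python 3.11.15, pandas 2.3.3 and matplotlib 3.10.9 were used. The test was checked on simulated data. Positions came from GENCODE M21 (GRCm38), which gave the deposited position for 30993 of 31286 shared identifiers, and promoter sequences from RefSeq. The members and gene lists, the salivary gland list included, were chosen with earlier results of these data known. Genes named in the text were the members, their relatives, milk protein genes, some hormone receptor and target genes, the gene of each list with the smallest p, and the 2 genes most like each member, and 1 of the relatives is not reported here. Antisense genes that overlap a member were added after their values were seen. Total counts of 15902886 to 25719244 leave counting error small for the members, and the spread between 3 mice limits precision. No sample was left out. Alternatives were other normalizations, filters, tests and covariates, a replicate block, and leaving out mice.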

Additional observations from a re-analysis of the deposited data

How the results depend on the processing

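Under 15 alternatives, 0 of 150 values of the members passed the adjusted threshold, and 142 of 150 kept their direction. The number of genes higher in IL-21isoTg mice was 0 in the quasi-likelihood test, where 999 genes had an unadjusted p under 0.05, but 14 without the filter, 72 with DESeq2, 52 with edgeR's likelihood ratio test and 6 without mouse 3 of both genotypes, and 0 to 6 when each mouse was left out (6 without WT mouse 3). The number lower was 0, but 9 with DESeq2, 13 with the likelihood ratio test and 1 with the salivary level as a covariate, and 0 to 0 when each mouse was left out. Members with groups apart numbered 1 (Elf5), 2 with TMM computed without milk protein and salivary gland genes (Cish and Elf5, where 12% of all genes were apart), and 1 to 5 when each mouse was left out (17.9% to 27.6% of all genes). The 5 came without WT mouse 1 (Cish, Socs2 and Elf5 higher, Prlr and Gata3 lower), where 26% of all genes were apart. Of the 8 milk protein genes, 0 were called in the quasi-likelihood test, 5 with DESeq2 and with the likelihood ratio test, 2 without the filter and 4 without WT mouse 3.

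The sign reversed for Jak2 with that TMM (0.0023), with the salivary covariate (0.011) and without mouse 3 of both genotypes (0.0993). It also reversed without mouse 3 of both genotypes for Gata3, Stat6, Elf3, Nfia and Pgr, at an end of their ranges given next, and for Nfia with limma-voom (-0.0021) and the salivary covariate (-0.0528). Leaving out each mouse, or mouse 3 of both genotypes, gave ranges that crossed 0 for Jak2 (-0.2251 to 0.1402), Stat5a (-0.1614 to 0.4397), Stat5b (-0.0056 to 0.2894), Gata3 (-0.6514 to 0.1331), Stat6 (-0.1267 to 0.017), Socs3 (-0.2901 to 0.5003), Elf3 (-0.0166 to 0.5533), Nfia (-0.1007 to 0.157), Nfix (-0.1878 to 0.0131) and Pgr (-0.6192 to 0.3081). The cause was not tested.

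The labels number the mice of each genotype, but same-numbered mice share only a number: their deviations from the group means correlated at -0.224, 0.068 and -0.062. With the replicate block 0 genes were called in either direction, Elf5 had a log2 fold change of 0.68 and Cish 0.67, and no call of a member changed.

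With 3 mice a genotype, differences within the 95% interval of a gene, widest among the members for Prlr, could not be resolved. A library of 41.1% salivary gland counts leaves fewer reads for mammary genes.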

Other observations

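Hormone-sensing luminal markers had 2 positive and 5 negative log2 fold changes of 7 tested, with a median of -0.28, and Pgr, the progesterone receptor gene, stood at 53.5, 111 and 190 CPM in WT mice and 86.8, 117 and 87.4 CPM in IL-21isoTg mice (log2 fold change -0.28). Luminal progenitor markers had 3 positive and 2 negative values of 5 tested, with a median of 0.08, and basal markers 7 positive and 1 negative of 8, with a median of 0.46. Fibroblast markers had 7 positive and 1 negative of 8, with a median of 0.49, endothelial markers 7 positive of 7, with a median of 0.80, and adipocyte markers 3 positive of 3, with a median of 1.78. Salivary gland genes had 17 positive of 17 tested, with a median of 1.05. Their summed level was both highest and lowest in IL-21isoTg mice, at 609368 CPM in mouse 3 and 42712 CPM in mouse 2. In WT mice it lay between 54589 and 231083 CPM. Macrophage markers, 3 positive and 4 negative of 7, had a median of -0.05. T cell markers, 4 positive and 2 negative of 6, had a median of 0.12, and B and plasma cell markers, 1 positive and 3 negative of 4, had a median of -0.26. In the edgeR quasi-likelihood test 0 genes of these lists passed the threshold.

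Summed levels of immune markers were low in every library. Macrophage markers summed to between 16.5 and 27.9 CPM in WT mice and between 20.4 and 24.5 CPM in IL-21isoTg mice, and T cell markers to between 6.29 and 10.7 CPM and between 9.70 and 11.02 CPM. B and plasma cell markers summed to between 2.93 and 11.7 CPM in WT mice and between 4.86 and 8.004 CPM in IL-21isoTg mice. Adipocyte markers summed to between 25.8 and 68.2 CPM and between 30.1 and 197 CPM.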
